A study of Rattus norvegicus with 26 samples.

Results

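The 52 genes described here drive DNA replication and cell division. They were chosen by name, and each was read from the gene probe that carries its name on the array, taking the probe with the highest mean log2 level over the 26 arrays where a gene had several. A probe was found for 50 of the 52. *Mki67*, the proliferation antigen, and *Mcm3*, a subunit of the replicative helicase, had none and have no value here. Of the 50, 46 were tested, those for which all arrays of some group read well above background. *Cdc25a* (a phosphatase that activates Cdk2), *Plk4* (the kinase of centriole duplication), *Cenpe* (a kinetochore motor) and *Nusap1* (a spindle protein) were not well above background on all arrays of any group, with group means between 0.15 and 1.17 on the log2 scale, and were left out of the tests.

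Rat multipotent adult progenitor cells (rMAPCs) are cultured bone marrow cells that express the pluripotency factor Oct4. Clone Cl19 was derived from a female Fischer rat aged 3 weeks and clone 3c3 from a female Fischer embryo at E18, and each is 1 line. Cells of both clones were kept for 6 days with TGF-ß and PDGF-bb in basal rMAPC medium, a treatment meant to give smooth muscle-like cells. Per the methods, this culture was without serum. RNA was taken on d0 (before the cytokines), d2, d4 and d6, with 3 arrays per clone and day. The methods call the replicates biological. Another 2 arrays held commercial RNA of primary smooth muscle cells (SMCs), labelled as rat aortic RNA, and nothing states that they hold separate preparations. No culture of the same length without the cytokines is among the groups used here. Time in culture, the medium without serum and the cytokines therefore cannot be told apart.

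A cell that divides first loads the Mcm helicase onto replication origins (licensing), then copies its DNA behind a fork of polymerases, clamp and clamp loader, and then builds a spindle that pulls the copies apart. Cyclins E and A drive entry into and passage through S phase with Cdk2, and cyclins A and B drive entry into mitosis with Cdk1. Most of these genes are transcribed mainly in dividing cells: E2F factors switch on the S phase genes, and B-Myb and FoxM1 the mitotic ones. Mature vascular SMCs divide rarely but can re-enter the cycle in culture, and TGFβ1 is known to arrest many cell types in G1 while PDGF-BB is a mitogen for SMCs. Levels below are quantile-normalized log2 intensities of 1 probe, a change is a difference between group means on that scale with its standard error (SE), and levels of different probes are not compared.

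The probes are 60 bases long, and 49 of the 50 have a position in the rat build rn4. Their GC content runs from 21.67% to 60.0%. The sequences of 5 are shown, since the account turns on them: those of *Mybl2*, *Ccne2* and *Kif2c* span an intron in the genome, and those of *Gmnn* and *Rfc4*, both at 35% GC, differed between slides as well as between days. All letters are in lower case, since no part of a probe is singled out.
Mybl2 (chr3:153950537-153952137, plus strand): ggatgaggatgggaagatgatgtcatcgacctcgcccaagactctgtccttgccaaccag
Ccne2 (chr5:25039349-25040889, plus strand): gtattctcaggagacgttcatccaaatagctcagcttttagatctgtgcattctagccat
Kif2c (chr5:137478115-137480967, minus strand): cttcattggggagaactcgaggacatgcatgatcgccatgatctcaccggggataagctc
Gmnn (chr17:47380221-47380280, plus strand): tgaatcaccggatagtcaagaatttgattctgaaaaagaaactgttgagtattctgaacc
Rfc4 (chr11:79949868-79949927, plus strand): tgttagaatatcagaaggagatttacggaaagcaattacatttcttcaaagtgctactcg

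The arrays came on 7 slides. Each slide of the time course held the 4 days of 1 replicate of 1 clone in the same positions, so day and position cannot be told apart, and the slides of Cl19, of 3c3 and of the primary SMCs went through 3 separate scans, so level differences between clones or against the primary SMCs cannot be told apart from the scan. The slide of 3c3 replicate 3 had negative control signals of 28.3 to 44.5 against 10.9 to 14.0 elsewhere. Another array stood apart: Cl19 d2 replicate 1 was nearer to the 3c3 d2 arrays over all tested probes (root mean square difference 0.38 to 0.54) than to the other Cl19 d2 arrays (0.88 to 0.92), and over the members the ranges were 0.12 to 0.52 and 0.28 to 0.53. The calls and the d2 values of Cl19 that the account turns on are given with and without it. Between d0 and d6 the median of all tested probes moved by -0.20 in Cl19 and -0.21 in 3c3, and the members' changes are to be read against that shift, which was 0.10 and 0.09 in the deposited log2 table before normalization between arrays.

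By d6 nearly the whole group had fallen in both clones. In Cl19, 41 of the 46 tested members fell (adjusted p under 0.05), against 30.3% of all tested probes that fell, and in 3c3 40 fell, against 28.6%. None of the 46 was higher on d6 in either clone, where 22% and 19.7% of all probes were higher. The median change was -1.57 in Cl19 and -1.51 in 3c3, and 39 members fell in both. Fewer dividing cells and less RNA of these genes per cell cannot be told apart in these bulk samples.

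**Figure D1:**
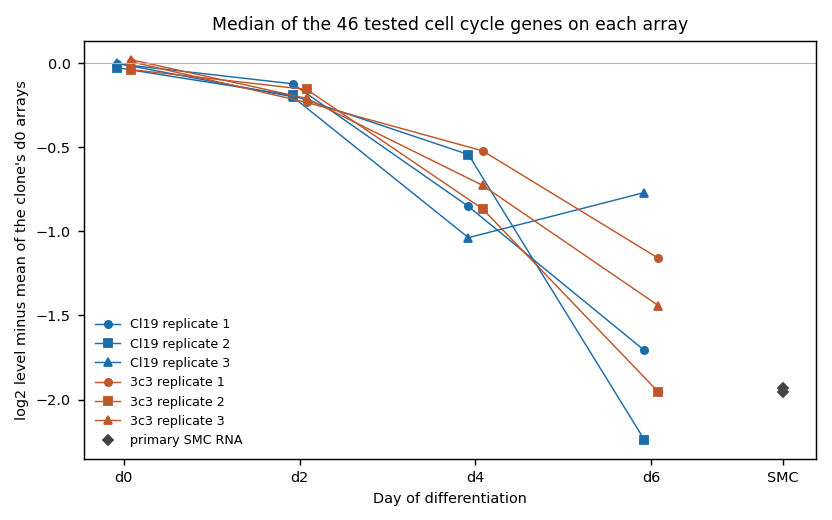
Median over the 46 tested members of the log2 difference from the clone's own d0 mean, 1 point per array, by day, and for primary SMCs from the mean of both clones' d0 levels. The d2 arrays lie between -0.23 and -0.12, the d6 arrays between -2.24 and -0.77, and the highest d6 array is Cl19 replicate 3.

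On the arrays themselves, the d0 and d6 levels did not overlap, with d6 lower, for 40 of the 46 members in Cl19 (36.9% of all probes) and for 42 in 3c3 (32.7%). The members that overlapped were *Gmnn*, *Mcm7*, *Rfc4*, *Prim1*, *E2f1* and *Cenpf* in Cl19 and *Gmnn*, *Rfc4*, *Cdc25b* and *Kif2c* in 3c3. Within slides, 44 of 46 members were lower on d6 than on d0 on all 3 slides of Cl19, and likewise 44 of 46 in 3c3. The slide medians were -1.70, -2.33 and -0.69 for Cl19 replicates 1, 2 and 3 and -1.16, -1.92 and -1.38 for 3c3. Shares of all probes within slides were not counted.

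The members of Cl19 replicate 3 stood well above those of the other 2 d6 arrays of that clone. That array held the highest of the 3 d6 values for 44 of the 46 members, and 34 members were higher on it than on the d4 array of the same slide, where replicates 1 and 2 had none. The median standard deviation of a member on d6 was accordingly 0.80 in Cl19, against 0.31 for all probes, whereas in 3c3 it was 0.43 against 0.32. The summed level of the 7 smooth muscle markers with a probe was 15.90 on that array against 16.12 and 16.16 on the other Cl19 d6 arrays, and that of 6 markers of primitive rMAPCs was 14.54 against 14.21 and 13.94; the part of either in the difference was not tested. Left out, it gave 44 members lower on d6, against 6965 of the 24442 tested probes, and a median change of -1.95. How many of all probes were highest on that array, or above d4 of its slide, was not counted.

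Licensing and initiation genes fell in 8 of 9 tested cases in each clone by d6, where 30.3% of all probes fell in Cl19 and 28.6% in 3c3. The licensing and initiation genes had median changes of -1.53 in Cl19 and -1.22 in 3c3. These genes place the helicase on origins and start it. In each list below, values run in the order of replicates 1, 2 and 3. The d6 counts of the other roles below are to be read against the same shares of all probes, and the smallest roles hold few genes. Mcm5, a helicase subunit, stood for the group: *Mcm5* levels in Cl19 were 11.30, 10.95 and 10.96 on d0, 10.95, 10.70 and 10.78 on d2, 9.90, 10.18 and 9.87 on d4 and 9.38, 8.57 and 10.28 on d6. In 3c3 they were 11.02, 11.16 and 11.26 on d0, 10.91, 10.92 and 11.04 on d2, 10.69, 10.05 and 10.36 on d4 and 9.88, 9.05 and 9.83 on d6. The d6 arrays of both clones lay below all their d0 arrays, with changes of -1.66 ± 0.29 (SE, adjusted p = 8.5e-05) in Cl19 and -1.56 ± 0.29 (SE, adjusted p = 0.00021) in 3c3.

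*Cdc6*, whose product loads the helicase with Cdt1, fell in both clones, and the changes were not called as different (-0.86 ± 0.51, SE, adjusted p = 0.3, Cl19 minus 3c3). Its levels in Cl19 were 10.80, 10.61 and 10.69 on d0, 10.66, 10.25 and 10.40 on d2, 9.68, 9.78 and 9.56 on d4 and 8.13, 7.26 and 9.57 on d6. In 3c3 it measured 10.75, 10.71 and 10.85 on d0, 10.49, 10.49 and 10.60 on d2, 10.32, 9.83 and 10.00 on d4 and 9.72, 8.71 and 9.32 on d6. The changes by d6 were -2.38 ± 0.36 (SE, adjusted p = 1.4e-05) in Cl19 and -1.52 ± 0.36 (SE, adjusted p = 0.0016) in 3c3. The spread over the Cl19 d6 arrays, from 7.26 to 9.57, was far wider than over the Cl19 d0 arrays, from 10.61 to 10.80. *Mcm2*, another helicase subunit, fell further in Cl19 than in 3c3 in the main fit, a difference that some alternative fits given below did not call. Levels of *Mcm2* in Cl19 were 12.93, 12.86 and 12.81 on d0, 13.01, 12.49 and 12.67 on d2, 12.20, 11.99 and 11.96 on d4 and 11.29, 10.81 and 11.91 on d6, and those in 3c3 were 12.93, 12.74 and 12.85 on d0, 12.83, 12.80 and 12.88 on d2, 12.74, 12.48 and 12.60 on d4 and 12.31, 12.01 and 12.30 on d6. All 3 Cl19 d6 arrays were below all 3 of 3c3, with changes of -1.53 ± 0.19 (SE, adjusted p = 2e-06) and -0.64 ± 0.19 (SE, adjusted p = 0.011).

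The other members of the group are *Cdt1*, *Mcm4*, *Mcm6*, *Mcm7*, *Mcm10* and *Gmnn*, the last encoding the inhibitor of Cdt1. The smallest called fall of the group in Cl19 was that of *Mcm7*, at -0.64 ± 0.21 (SE, adjusted p = 0.016), and that of *Mcm7* in 3c3 was -1.05 ± 0.21 (SE, adjusted p = 0.00042). For *Mcm10*, which joins the helicase as it starts, the changes were -1.68 ± 0.33 (SE, adjusted p = 0.00022) and -1.39 ± 0.33 (SE, adjusted p = 0.0016). *Gmnn* was not called in either clone, with changes of -1.38 ± 0.84 (SE, adjusted p = 0.18) and -1.21 ± 0.84 (SE, adjusted p = 0.26).

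Among the 7 genes of the fork and of nucleotide supply, 5 fell in each clone. *Rrm2*, the regulated subunit of ribonucleotide reductase that makes deoxynucleotides, had the largest fall of all 46 members. In Cl19 *Rrm2* measured 12.61, 12.64 and 12.72 on d0, 11.45, 10.90 and 11.05 on d2, 8.73, 9.77 and 8.87 on d4 and 7.60, 7.33 and 9.92 on d6. In 3c3 it measured 12.93, 12.86 and 12.98 on d0, 11.21, 11.57 and 11.65 on d2, 11.40, 10.33 and 11.09 on d4 and 10.85, 9.71 and 10.47 on d6. No d2 array of either clone reached a d0 array, and by d6 the changes were -4.38 ± 0.47 (SE, adjusted p = 2.5e-07), a 20.8-fold fall, and -2.58 ± 0.47 (SE, adjusted p = 0.00017), a 5.96-fold fall.

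*Rrm1*, the partner subunit, fell by less, with changes of -1.35 ± 0.29 (SE, adjusted p = 0.00067) and -1.46 ± 0.29 (SE, adjusted p = 0.00041). *Top2a*, the topoisomerase that untangles replicated DNA, had most of its fall after d4. Every d2 and d4 array of *Top2a* lay below every d0 array of its clone. Its levels in Cl19 were 11.66, 11.87 and 11.70 on d0, 11.39, 11.13 and 11.26 on d2, 11.34, 11.27 and 10.96 on d4 and 9.42, 8.93 and 10.87 on d6, and in 3c3 11.59, 11.64 and 11.67 on d0, 11.25, 11.37 and 11.34 on d2, 11.25, 11.32 and 11.21 on d4 and 10.32, 9.63 and 10.33 on d6. On d4 the change was -0.55 ± 0.31 (SE, adjusted p = 0.15) and -0.37 ± 0.31 (SE, adjusted p = 0.37), neither called, and on d6 it was -2.001 ± 0.31 (SE, adjusted p = 1.7e-05) and -1.54 ± 0.31 (SE, adjusted p = 0.00036). Without Cl19 d6 replicate 3, *Top2a* was called lower on d2 and d4 in Cl19 and on neither day in 3c3.

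*Pcna*, the sliding clamp, was not called in either clone in spite of lower d6 arrays. Levels of *Pcna* in Cl19 were 10.25, 11.22 and 10.48 on d0, 10.096, 11.11 and 10.44 on d2, 9.39, 10.97 and 9.48 on d4 and 9.03, 9.92 and 10.07 on d6, and in 3c3 10.34, 11.35 and 10.52 on d0, 10.20, 11.08 and 10.26 on d2, 10.09, 10.12 and 9.99 on d4 and 9.99, 10.04 and 9.43 on d6. Replicate 2 lay above the other replicates on d0, d2 and d4 in both clones, and the changes by d6 were -0.98 ± 0.41 (SE, adjusted p = 0.05) in Cl19 and -0.92 ± 0.41 (SE, adjusted p = 0.07) in 3c3. With the slide as a block the adjusted p of *Pcna* was 0.0026 and 0.0045. *Rfc4*, a subunit of the clamp loader, showed the same replicate difference and was not called, while *Pola1* and *Prim1*, subunits of the polymerase that starts each strand, fell with changes of -1.10 and -0.66 in Cl19 and -1.34 and -0.58 in 3c3.

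Cyclins, Cdk1 and the Cdc25 phosphatases that activate it fell in 8 of 8 tested cases in Cl19 and in 7 of 8 in 3c3. *Ccna2*, cyclin A2, had the third largest mean fall of all members. Its Cl19 levels were 11.38, 11.63 and 11.58 on d0, 11.33, 11.27 and 11.25 on d2, 10.26, 10.56 and 10.03 on d4 and 8.37, 7.98 and 10.02 on d6, and its 3c3 levels 11.61, 11.87 and 11.69 on d0, 11.28, 11.53 and 11.38 on d2, 10.76, 10.34 and 10.56 on d4 and 9.96, 8.93 and 9.75 on d6. The groups did not overlap between d0 and d4 or between d0 and d6 in either clone, with changes by d6 of -2.74 ± 0.35 (SE, adjusted p = 1.9e-06) and -2.18 ± 0.35 (SE, adjusted p = 4e-05).

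The cyclins E, which act at the start of S phase, were first called on d4 in both clones. *Ccne1* measured 13.02, 13.56 and 13.19 on d0, 12.63, 13.05 and 12.49 on d2, 11.83, 12.22 and 11.27 on d4 and 11.57, 11.22 and 12.09 on d6 in Cl19. In 3c3 *Ccne1* measured 13.30, 13.79 and 13.04 on d0, 12.74, 13.05 and 12.48 on d2, 12.11, 11.38 and 11.37 on d4 and 11.53, 10.34 and 10.56 on d6. By d4 the change had reached -1.48 in Cl19 and -1.75 in 3c3, which was 90.9% and 68.3% of the d6 change of -1.63 ± 0.32 (SE, adjusted p = 0.00026) and -2.57 ± 0.32 (SE, adjusted p = 2.6e-06).

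*Ccne2* measured 9.24, 9.18 and 9.47 on d0, 8.42, 8.34 and 8.43 on d2, 7.13, 7.83 and 7.04 on d4 and 6.20, 6.402 and 7.64 on d6 in Cl19. In 3c3 *Ccne2* measured 9.44, 9.12 and 9.35 on d0, 8.50, 8.15 and 8.30 on d2, 8.33, 6.88 and 7.51 on d4 and 8.37, 6.87 and 6.86 on d6. Every later array lay below every d0 array in both clones, and the d6 changes were -2.55 ± 0.53 (SE, adjusted p = 0.00046) and -1.94 ± 0.53 (SE, adjusted p = 0.0054). The d2 changes, -0.90 ± 0.53 (SE, adjusted p = 0.26) and -0.99 ± 0.53 (SE, adjusted p = 0.23), did not pass the test, and without Cl19 d2 replicate 1 that of Cl19 was -0.91 ± 0.61 (SE, adjusted p = 0.32).

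*Ccnb1*, cyclin B1, and *Cdc2*, the gene of Cdk1, are the pair that starts mitosis. *Ccnb1* in Cl19 measured 14.06, 14.05 and 14.04 on d0, 13.93, 13.89 and 13.82 on d2, 13.42, 13.35 and 13.12 on d4 and 12.07, 11.72 and 13.04 on d6, and in 3c3 14.16, 14.14 and 14.16 on d0, 14.03, 13.86 and 13.87 on d2, 13.52, 13.09 and 13.26 on d4 and 12.99, 12.07 and 12.63 on d6. It was called from d4 in both clones and had changed by -1.77 ± 0.24 (SE, adjusted p = 5e-06) and -1.59 ± 0.24 (SE, adjusted p = 2.6e-05) by d6. *Cdc2* in Cl19 measured 14.46, 14.30 and 14.37 on d0, 14.44, 14.14 and 14.31 on d2, 13.70, 14.02 and 13.58 on d4 and 12.37, 11.98 and 13.70 on d6, and in 3c3 14.35, 14.47 and 14.54 on d0, 14.23, 14.28 and 14.18 on d2, 14.19, 13.80 and 14.12 on d4 and 13.41, 12.71 and 13.40 on d6. It was called on d6 alone, with changes of -1.70 ± 0.29 (SE, adjusted p = 5.8e-05) and -1.28 ± 0.29 (SE, adjusted p = 0.0012), while those of *Ccnb2*, cyclin B2, were -2.04 and -1.74 and those of *Cdc25c* -1.33 and -1.35.

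*Cdc25b*, a phosphatase that removes the inhibitory phosphates of Cdk1, took another course. In Cl19 *Cdc25b* measured 6.92, 6.94 and 7.16 on d0, 7.76, 7.60 and 7.92 on d2, 6.86, 6.85 and 6.79 on d4 and 5.78, 5.24 and 6.70 on d6. In 3c3 it measured 6.53, 6.45 and 6.78 on d0, 7.86, 7.56 and 7.99 on d2, 7.4995, 6.78 and 7.36 on d4 and 6.82, 5.96 and 6.90 on d6. Every d2 array of both clones lay above every d0 array. The d2 change was 1.22 ± 0.29 (SE, adjusted p = 0.0047) in 3c3, the one call of a higher member there, where 9.8% of all probes were higher, and 0.76 ± 0.29 (SE, adjusted p = 0.063) in Cl19, where 11.2% were. Without Cl19 d2 replicate 1 the latter was 0.76 ± 0.33 (SE, adjusted p = 0.1). By d6 the change was -1.10 ± 0.29 (SE, adjusted p = 0.003) in Cl19, a fall, and -0.02 ± 0.29 (SE, adjusted p = 0.95) in 3c3, where the d6 and d0 arrays overlapped.

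**Figure D2:**
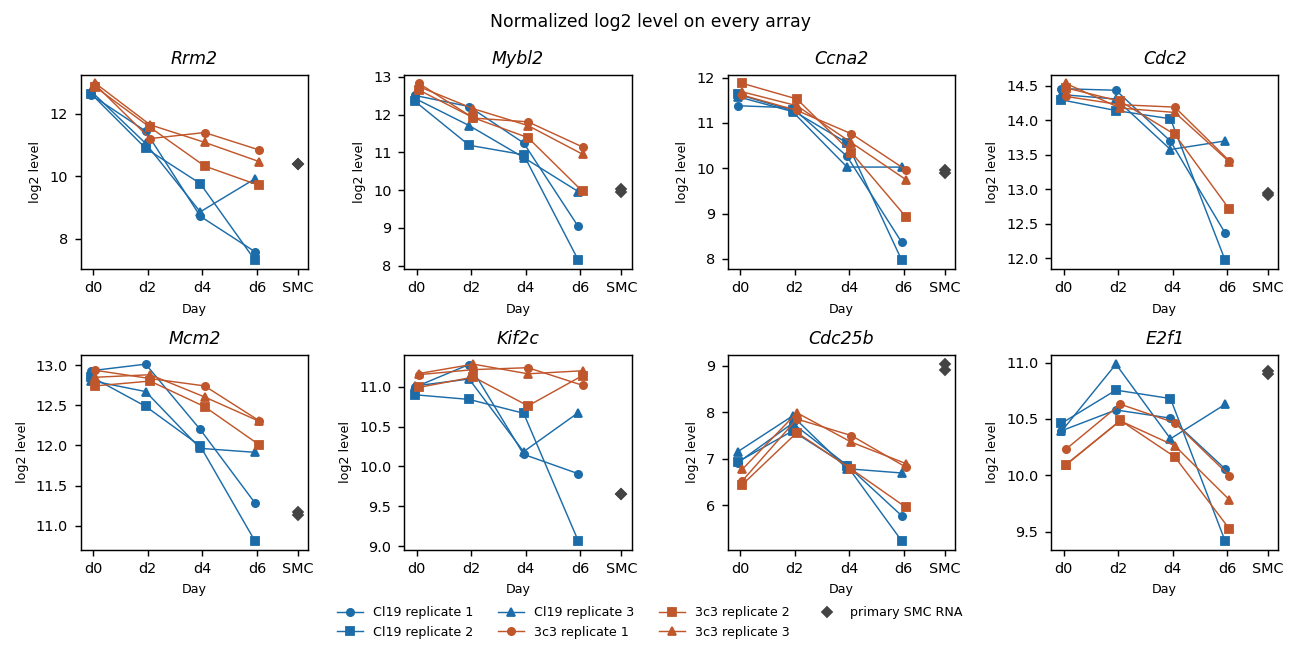
Log2 level of 8 members (Rrm2, Mybl2, Ccna2, Cdc2, Mcm2, Kif2c, Cdc25b and E2f1) on every array by day in both clones and in primary SMCs, 1 point per array. Rrm2 is below all its d0 values from d2 on, Cdc25b is above them on d2, and Kif2c of 3c3 stays between 10.76 and 11.29.

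Of the transcription factors and Chek1, 3 of 4 fell in each clone. *Mybl2* encodes B-Myb, which switches on mitotic genes, and had the second largest mean fall. Levels in Cl19 were 12.51, 12.36 and 12.44 on d0, 12.22, 11.19 and 11.71 on d2, 11.25, 10.94 and 10.86 on d4 and 9.04, 8.15 and 9.96 on d6. In 3c3 *Mybl2* measured 12.83, 12.65 and 12.74 on d0, 11.91, 11.92 and 12.16 on d2, 11.81, 11.39 and 11.71 on d4 and 11.14, 9.97 and 10.95 on d6. The d6 arrays lay below all d0, d2 and d4 arrays of the same clone, and the d6 changes were -3.39 ± 0.34 (SE, adjusted p = 1.1e-07) and -2.06 ± 0.34 (SE, adjusted p = 6.5e-05).

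*Foxm1*, the other activator of mitotic genes, measured 11.08, 11.09 and 11.06 on d0, 10.88, 10.97 and 10.89 on d2, 10.72, 10.59 and 10.23 on d4 and 9.29, 9.08 and 10.20 on d6 in Cl19. In 3c3 *Foxm1* measured 11.31, 10.96 and 11.02 on d0, 10.87, 10.82 and 10.86 on d2, 10.55, 10.43 and 10.41 on d4 and 9.96, 9.51 and 9.85 on d6. Both d4 and d6 fell, by d6 with changes of -1.56 ± 0.21 (SE, adjusted p = 3e-06) and -1.33 ± 0.21 (SE, adjusted p = 2.9e-05). *E2f1*, the activator of S phase genes, did not pass the test on any day. Its Cl19 levels were 10.39, 10.46 and 10.39 on d0, 10.58, 10.76 and 10.99 on d2, 10.51, 10.68 and 10.32 on d4 and 10.06, 9.42 and 10.63 on d6, and its 3c3 levels 10.23, 10.09 and 10.095 on d0, 10.63, 10.49 and 10.48 on d2, 10.47, 10.16 and 10.26 on d4 and 10.00, 9.53 and 9.78 on d6. The d2 arrays of both clones lay above all d0 arrays and, in 3c3, the d6 arrays lay below them, but the d6 changes were -0.38 ± 0.21 (SE, adjusted p = 0.14) and -0.37 ± 0.21 (SE, adjusted p = 0.15). *Chek1*, the kinase that guards stalled forks, was called on d6 alone, with changes of -1.30 and -1.27.

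All 7 tested mitotic kinases and spindle checkpoint genes fell in both clones by d6, with median changes of -1.64 in Cl19 and -1.68 in 3c3. They were the most even of the larger groups, from -2.21 to -1.47 in Cl19 and from -1.82 to -1.50 in 3c3. *Aurkb*, the kinase of the chromosomal passenger complex, measured 10.997, 10.80 and 10.998 on d0, 10.87, 10.37 and 10.79 on d2, 9.82, 10.01 and 9.61 on d4 and 8.49, 7.63 and 10.05 on d6 in Cl19. In 3c3 *Aurkb* measured 11.19, 10.83 and 11.03 on d0, 10.81, 10.64 and 10.91 on d2, 10.75, 9.99 and 10.43 on d4 and 9.91, 8.50 and 9.58 on d6. Its changes by d6 were -2.21 ± 0.41 (SE, adjusted p = 0.00016) and -1.68 ± 0.41 (SE, adjusted p = 0.0023).

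*Plk1*, the kinase that drives mitotic entry and spindle assembly, measured 13.69, 13.56 and 13.65 on d0, 13.69, 13.47 and 13.69 on d2, 12.85, 13.03 and 12.58 on d4 and 11.61, 10.97 and 12.998 on d6 in Cl19. In 3c3 *Plk1* measured 13.81, 13.78 and 13.80 on d0, 13.58, 13.67 and 13.74 on d2, 13.34, 12.83 and 13.08 on d4 and 12.50, 11.23 and 12.27 on d6. No d6 array overlapped a d0 array, and the changes by d6 were -1.77 ± 0.35 (SE, adjusted p = 0.00026) and -1.80 ± 0.35 (SE, adjusted p = 0.00029). *Aurka*, a kinase of the spindle poles, and the checkpoint genes *Bub1*, *Bub1b*, *Mad2l1* and *Ttk* made up the rest, and *Ttk* had the largest fall of the checkpoint genes, with changes of -2.003 ± 0.25 (SE, adjusted p = 1.5e-06) and -1.82 ± 0.25 (SE, adjusted p = 7e-06).

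The activators of anaphase fell too, both of them in both clones. *Cdc20*, which turns on the ubiquitin ligase that ends metaphase, measured 14.55, 14.40 and 14.57 on d0, 14.71, 14.35 and 14.55 on d2, 14.03, 13.97 and 13.74 on d4 and 13.17, 12.31 and 14.05 on d6 in Cl19. In 3c3 *Cdc20* measured 14.93, 14.71 and 14.87 on d0, 14.69, 14.65 and 14.62 on d2, 14.25, 13.58 and 13.86 on d4 and 13.50, 12.77 and 13.32 on d6. It was called on d4 in 3c3 but not in Cl19, where replicate 3 of d6 was above all d4 arrays, and the d6 changes were -1.33 ± 0.29 (SE, adjusted p = 0.00062) and -1.64 ± 0.29 (SE, adjusted p = 1e-04). *Ube2c*, the ubiquitin-conjugating enzyme of the same ligase, changed by -2.22 and -2.002.

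Of the kinesins and spindle proteins, 6 of 6 fell in Cl19 and 5 of 6 in 3c3. *Kif2c*, which takes microtubules apart at kinetochores, was the exception. Its levels in Cl19 were 10.99, 10.90 and 11.01 on d0, 11.28, 10.84 and 11.10 on d2, 10.15, 10.67 and 10.19 on d4 and 9.91, 9.07 and 10.68 on d6, and in 3c3 11.15, 10.99 and 11.17 on d0, 11.22, 11.12 and 11.29 on d2, 11.24, 10.76 and 11.16 on d4 and 11.02, 11.14 and 11.20 on d6. All Cl19 d6 arrays lay below all Cl19 d0 arrays, with a change of -1.08 ± 0.26 (SE, adjusted p = 0.0015), while the 3c3 days overlapped throughout, with a change of 0.02 ± 0.26 (SE, adjusted p = 0.96). The other kinesins fell in both clones, *Kif23* by 2.37 and 1.39, *Kif20a* by 1.67 and 1.72 and *Kif11* by 1.58 and 1.39 in Cl19 and 3c3, as did *Tpx2*, which activates Aurora A, and *Prc1*, which bundles the midzone of the spindle.

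At the centromere 2 of 3 tested members fell in Cl19 and all 3 in 3c3. *Cenpa*, the centromeric histone, changed by -1.99 ± 0.27 (SE, adjusted p = 3.9e-06) and -1.86 ± 0.27 (SE, adjusted p = 1.3e-05). *Birc5*, survivin of the passenger complex, measured 8.74, 9.87 and 9.04 on d0, 8.96, 9.98 and 8.97 on d2, 7.98, 9.29 and 7.87 on d4 and 7.61, 7.40 and 8.46 on d6 in Cl19. In 3c3 *Birc5* measured 8.93, 10.17 and 8.66 on d0, 9.004, 9.90 and 8.61 on d2, 8.602, 8.86 and 8.03 on d4 and 7.44, 7.62 and 7.61 on d6. Replicate 2 was the highest on d0, d2 and d4 in both clones, and the d6 changes were -1.39 ± 0.46 (SE, adjusted p = 0.015) and -1.69 ± 0.46 (SE, adjusted p = 0.0046).

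*Cenpf*, a kinetochore protein of G2 and mitosis, was not called on d6 in Cl19. Its levels there were 5.72, 5.74 and 5.63 on d0, 5.85, 6.66 and 6.54 on d2, 6.45, 6.84 and 6.25 on d4 and 4.88, 4.92 and 6.62 on d6. In 3c3 *Cenpf* measured 5.20, 5.94 and 6.11 on d0, 5.88, 6.10 and 5.90 on d2, 5.41, 6.12 and 5.596 on d4 and 4.72, 5.03 and 4.85 on d6. Every d2 and d4 array of Cl19 was above every d0 array, and d6 replicate 3 was too, so that the d6 change was -0.23 ± 0.35 (SE, adjusted p = 0.62). Without that array it was -0.80 (adjusted p = 0.018), a fall. In 3c3 the d6 arrays lay below all d0 arrays and the change was -0.88 ± 0.35 (SE, adjusted p = 0.043).

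**Figure D3:**
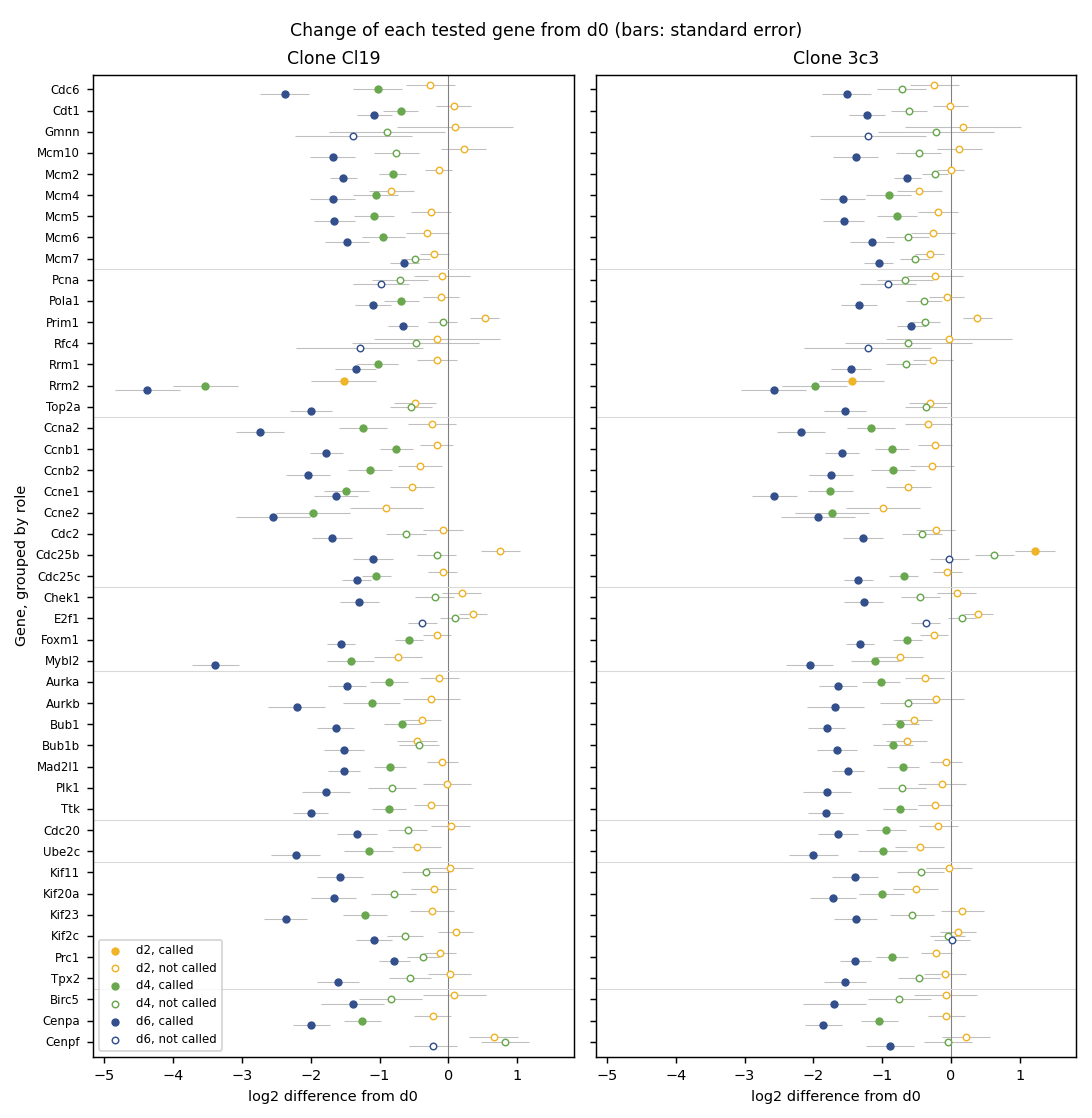
Log2 change from d0 to d2, d4 and d6 with its standard error for each of the 46 tested members, by role, in Cl19 and 3c3 (3 arrays a day and clone). On d6 Rrm2 lies furthest down in both clones, at -4.38 and -2.58, and E2f1, Cenpf of Cl19 and Kif2c and Cdc25b of 3c3 lie nearest to 0.

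The calls came in steps. On d2, 1 of 46 members was called lower in each clone, *Rrm2*, against 11.5% of all probes in Cl19 and 9.27% in 3c3. The change of *Rrm2* on d2 was -1.52 ± 0.47 (SE, adjusted p = 0.025) in Cl19 and -1.44 ± 0.47 (SE, adjusted p = 0.038) in 3c3. Without Cl19 d2 replicate 1 the count in Cl19 was again 1, with a change of *Rrm2* of -1.68 ± 0.54 (SE, adjusted p = 0.027) and a median over the members of -0.19, and without the slide of 3c3 replicate 3 it was 0 in both clones. On d4, 25 members were called lower in Cl19, against 27.1% of all probes, and 21 in 3c3, against 22.2%. None was higher on d4, where 20.2% and 14.8% of all probes were, except that *Cenpf* in Cl19 and *Cdc25b* in 3c3 were called higher with the slide as a block or without Cl19 d6 replicate 3. The median changes were -0.17 on d2 and -0.80 on d4 in Cl19 and -0.22 and -0.68 in 3c3, against medians of all probes of -0.07 on d2 and -0.16 on d4 in both. All d2 arrays lay below all d0 arrays for 15 members in Cl19 and 20 in 3c3, and above them for 6 and 3. All d4 arrays lay below all d0 arrays for 37 and 35, and above them for 1 in each clone. Shares of all probes without such overlap on d2 and d4 were not counted. A member not called on a day may thus still have been lower.

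Both clones shared 17 of the members that had fallen on d4, with 8 called in Cl19 alone and 4 in 3c3 alone. Called on d4 in both were cyclins A2, B1, B2, E1 and E2, *Cdc25c*, *Mcm4*, *Mcm5*, *Rrm2*, *Foxm1*, *Mybl2*, *Aurka*, *Bub1*, *Mad2l1*, *Ttk*, *Ube2c* and *Cenpa*. A first call on d6 came for 16 members in Cl19 and 19 in 3c3, and both held *Cdc2*, *Plk1*, *Top2a*, *Kif11*, *Tpx2*, *Chek1*, *Birc5*, *Prim1*, *Mcm7* and *Mcm10*. Not called lower on any day were 5 in Cl19 (*Pcna*, *Rfc4*, *Gmnn*, *E2f1*, *Cenpf*) and 6 in 3c3 (*Pcna*, *Rfc4*, *Gmnn*, *E2f1*, *Cdc25b*, *Kif2c*).

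The d4 counts of 3c3 rested on few arrays. Without the slide of replicate 3 the count on d4 in 3c3 was 2 (*Rrm2* and *Ccne1*) and that on d6 was 36, against 5298 of the 24442 tested probes on d6. Without Cl19 d6 replicate 3, whose spread enters every test, the d4 counts were 34 in Cl19 and 29 in 3c3. Shares of all probes lower on d4 in these fits were not counted.

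Steps between neighbouring days gave fewer calls. From d2 to d4, 14 members were called in Cl19, all of them lower, against 11.3% of all probes, and 3 in 3c3 (*Prim1*, *Ccne1* and *Cenpa*), against 4.39%. From d4 to d6, 15 fell in Cl19, against 3.51%, and 8 in 3c3, against 4.58%. *Top2a*, *Foxm1*, *Bub1*, *Ttk* and *Tpx2* fell in both clones in the last step, *Top2a* by -1.45 ± 0.31 (SE, adjusted p = 0.0062) in Cl19 and by -1.17 ± 0.31 (SE, adjusted p = 0.019) in 3c3. These step counts moved with the arrays used. Without Cl19 d2 replicate 1, 3 members were called from d2 to d4 in Cl19. Without Cl19 d6 replicate 3, 35 and 31 members were called from d4 to d6 in Cl19 and 3c3, and without the slide of 3c3 replicate 3, 6 and 0 were. Shares of all probes called for these steps in the fits with arrays left out were not counted.

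An F-test over all days called 42 members in Cl19, against 54.3% of all probes, and 41 in 3c3, against 50%. The members it left out were *Gmnn*, *Mcm7*, *Pcna* and *Rfc4* in Cl19 and *Gmnn*, *Pcna*, *Rfc4*, *Kif2c* and *Cenpf* in 3c3.

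Whether the clones differed was tested on the change itself. On d0 none of the 46 members differed between the clones, against 3.07% of all probes, with 1 at an unadjusted p below 0.05. The d2 change differed for none, against 0.323%, with 0 below 0.05 unadjusted, and no adjusted call was made by the other fits that left out 1 array. The d6 change differed for 2, against 17.4%, with 6 below 0.05 unadjusted.

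Both were deeper in Cl19. The difference, Cl19 minus 3c3, was -0.89 ± 0.27 (SE, adjusted p = 0.029) for *Mcm2* and -1.10 ± 0.37 (SE, adjusted p = 0.043) for *Kif2c*. For *Mybl2* it was -1.33 ± 0.49 (SE, adjusted p = 0.067) and for *Rrm2* -1.80 ± 0.67 (SE, adjusted p = 0.072), neither of which passed. Without Cl19 d6 replicate 3, 10 members differed, all deeper in Cl19 (*Cdc6*, *Mcm2*, *Rrm2*, *Top2a*, *Ccna2*, *Cdc2*, *Cdc25b*, *Mybl2*, *Kif23* and *Kif2c*). The share of all probes that differed in that fit was not counted. In the main fit it was 17.4%, so the 10 do not show a difference particular to the members. Without the slide of 3c3 replicate 3 no member differed, and none did with the 75th percentile scaling or without Cl19 d0 replicate 1.

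Some members followed the slide as well as the day. Replicate 2 of both clones read higher on d0 than the mean of replicates 1 and 3 by 1.83 in Cl19 and 2.63 in 3c3 for *Gmnn*, by 1.68 and 2.22 for *Rfc4*, by 0.98 and 1.37 for *Birc5* and by 0.86 and 0.92 for *Pcna*. *Gmnn* levels in Cl19 were 4.50, 6.84 and 5.51 on d0, 5.03, 6.73 and 5.403 on d2, 4.01, 6.13 and 4.03 on d4 and 3.38, 4.75 and 4.59 on d6. In 3c3 *Gmnn* measured 4.93, 7.40 and 4.61 on d0, 5.03, 7.35 and 5.09 on d2, 4.79, 6.54 and 4.94 on d4 and 3.80, 5.55 and 3.98 on d6. On each slide d6 was below d0, but replicate 2 of d6 was above replicate 1 of d0 in both clones. *Rfc4* levels were 4.63, 6.17 and 4.34 on d0, 4.51, 5.99 and 4.14 on d2, 3.86, 5.85 and 4.01 on d4 and 2.77, 5.04 and 3.45 on d6 in Cl19 and 3.91, 6.48 and 4.62 on d0, 4.36, 6.48 and 4.08 on d2, 4.04, 6.10 and 3.01 on d4 and 3.09, 5.24 and 3.05 on d6 in 3c3, again with every slide lower on d6 than on d0.

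**Figure D4:**
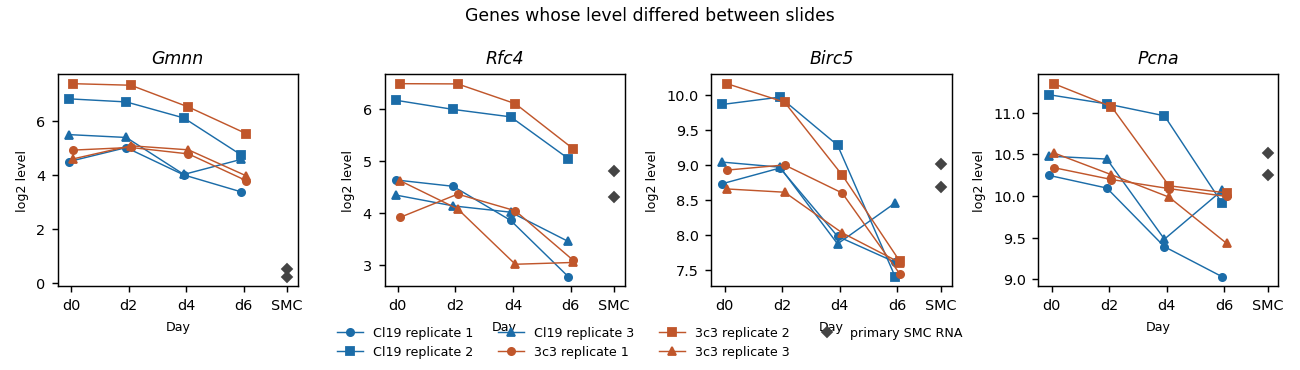
Log2 level of Gmnn, Rfc4, Birc5 and Pcna by day, 1 line per slide (the 4 days of 1 replicate), in Cl19 and 3c3, with the 2 primary SMC arrays as diamonds. The line of replicate 2 starts highest in every panel, and every line of Gmnn and Rfc4 ends below its start.

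The probes of *Gmnn*, *Rfc4* and *Birc5* have 35% GC and that of *Pcna* 40%. Over all 2884 tested probes with at most 35% GC, replicate 2 of d0 was higher than the others by a median of 0.37 in Cl19 and 0.44 in 3c3, and over the 6016 probes above 50% GC it was lower, at -0.18 and -0.21. The 7 members with at most 35% GC had medians of 0.45 and 0.62, and among them *Ccnb2*, also at 35%, read -0.23 and 0.18. The part of GC content in the replicate difference was not tested.

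With the slide as a block, which removes level differences between slides, 44 members were lower on d6 in Cl19, against 36.8% of all probes with the same block, and 43 in 3c3, against 36%. *Gmnn*, *Rfc4* and *Pcna* were then called in both clones. The members not called were *E2f1* and *Cenpf* in Cl19 and *Cdc25b*, *E2f1* and *Kif2c* in 3c3. On d2 the block gave 2 lower (*Mcm4* and *Rrm2*) and 2 higher (*Prim1* and *Cdc25b*) in Cl19 and 1 lower and 1 higher in 3c3, and on d4 it gave 31 and 24 lower and 1 higher in each clone, *Cenpf* in Cl19 (0.82, adjusted p = 0.041) and *Cdc25b* in 3c3 (0.63, adjusted p = 0.024). Over all probes the block gave 17.7% lower and 14.6% higher on d2 in Cl19, and 15.4% and 12.9% in 3c3. On d4 it gave 33.8% of all probes lower and 23.3% higher in Cl19, and 30.4% and 18.1% in 3c3.

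Primary SMCs were not uniformly below the d6 cells. Against Cl19 d6, 9 members were higher in the primary SMCs, where 32.8% of all probes were higher, and 13 were lower, where 38.6% were. Against 3c3 d6, 7 were higher, against 33.4%, and 17 lower, against 38.1%. The median difference was -0.19 and -0.47, with -0.13 for all probes in both. Cl19 d6 replicate 3 decided the sign of the first: without it the median against Cl19 was 0.28, with 29 of 46 members above 0 in place of 19, and 15 were called higher and 12 lower. Of the 24442 tested probes, 7688 were then higher and 9080 lower. Both comparisons use the same 2 primary arrays. In the deposited table, before normalization between arrays, none was higher and 42 were lower in both comparisons, with medians of all probes of -2.17 and -2.09, so the split between higher and lower depends on the scaling.

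*Cdc25b* was the furthest above, at 9.03 and 8.90 on the primary arrays against 5.24 to 6.70 on Cl19 d6 and 5.96 to 6.90 on 3c3 d6. The difference was 3.06 ± 0.32 (SE, adjusted p = 5.2e-08) from Cl19 and 2.41 ± 0.32 (SE, adjusted p = 1.4e-06) from 3c3. *Ube2c*, at 11.86 and 11.88, differed by 1.80 ± 0.40 (SE, adjusted p = 0.00046) and 1.59 ± 0.40 (SE, adjusted p = 0.0014). *Ccnb2*, *Kif20a*, *E2f1* and *Foxm1* were also higher than in both clones, *Rrm2*, *Ccna2* and *Mybl2* than in Cl19, and *Birc5* than in 3c3.

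Below both clones were *Cdt1*, *Mcm7*, *Pola1*, *Top2a*, *Bub1* and *Mad2l1*. *Cdt1*, the licensing factor, measured 8.399 and 8.44 in primary SMCs, a difference of -2.33 ± 0.29 (SE, adjusted p = 5.7e-07) and -2.28 ± 0.29 (SE, adjusted p = 7.5e-07). Another 5 were lower and not well above background on either primary array, so that only a bound can be given. *Ccne2* was at least 7.86-fold lower than in Cl19 d6 and at least 12.1-fold lower than in 3c3 d6, *Chek1* at least 4.88-fold and 5.45-fold, *Cenpf* at least 3.24-fold and 2.13-fold, *Kif11* at least 2.34-fold and 3.05-fold, and *Gmnn* at least 1.38-fold and 1.59-fold. *Mcm4* and *Ccne1* were lower than in Cl19 alone, and *Cdc6*, *Mcm2*, *Mcm10*, *Cdc25c*, *Kif23* and *Kif2c* than in 3c3 alone. The bounds set the dimmer group at the lowest signal well above background on each array, or at the probe's own signal where that is higher.

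**Figure D5:**
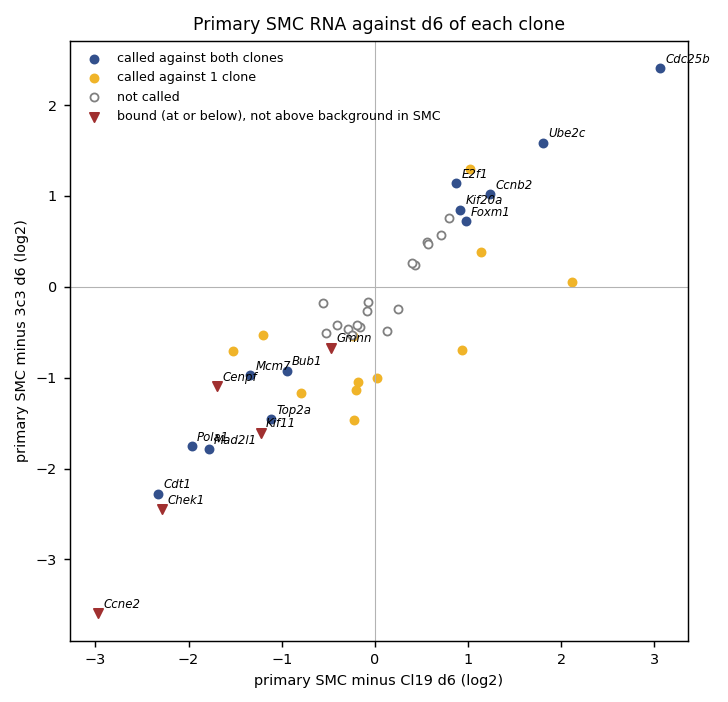
Log2 difference of each tested member between primary SMCs (2 arrays) and the d6 cells of Cl19 and 3c3 (3 arrays each), with called and uncalled members marked. Triangles stand at the bound for the 5 members not well above background on either primary array, whose true difference lies at or below it, and Cdc25b lies highest against both clones, at 3.06 and 2.41.

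Some members had further probes. Of 18 other tested probes, from 17 genes, 15 were lower on d6 in Cl19 and 14 in 3c3, none was higher, and 17 and 18 had a change below 0. The second probe of *Ccna2* had a change of -3.49 in Cl19 and of -1.62 in 3c3, where it missed the test with an adjusted p of 0.068.

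Other genes of the pathway, from lists that share no gene with the members, were read in the same fit, in which 30.3% of all probes fell by d6 in Cl19 and 28.6% in 3c3. Of 36 tested replication genes (37 of 39 listed had a probe), 28 fell by d6 in Cl19 and 29 in 3c3, none was higher, and the medians were -1.17 and -0.999. Of 30 tested mitosis genes (38 of 46 had a probe), 26 fell in each clone, none was higher, and the medians were -1.52 and -1.43. On d4, 20 and 13 of the replication genes and 11 and 9 of the mitosis genes had fallen in Cl19 and 3c3, against 27.1% and 22.2% of all probes, and 1 mitosis gene was higher in Cl19. Of 11 tested E2F and DREAM genes out of 16 listed, 5 fell and 1 was higher in Cl19, and 7 fell and 1 was higher in 3c3. Among them *E2f7* and *E2f8*, repressors of the E2F targets, had changes of -2.42 and -2.51 in Cl19, and of -2.32 and -2.30 in the 3c3 cells.

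Genes that govern G1 included some that rose. Of 15 listed and tested, 5 were higher by d6 in Cl19 and 6 lower, with 7 and 3 in 3c3, and the medians were 0.32 and 0.77. Those shares are to be read against the 22% of all probes higher and 30.3% lower in Cl19 and the 19.7% and 28.6% in 3c3. The lower genes in 3c3 include *Cdk6* (-1.19, adjusted p = 0.049), which was well above background on no d0 or d6 array of that clone. That call compares background readings. The inhibitors of cyclin-dependent kinases moved in both directions. *Cdkn2b*, the p15 inhibitor of Cdk4 and a known target of TGFβ, measured 3.51, 3.16 and 3.85 on d0, 5.29, 10.37 and 9.97 on d2, 11.89, 12.35 and 12.999 on d4 and 13.59, 13.73 and 13.09 on d6 in Cl19. In 3c3 *Cdkn2b* measured 3.40, 2.67 and 3.18 on d0, 6.00, 4.78 and 5.32 on d2, 7.92, 6.495 and 7.63 on d4 and 11.22, 9.69 and 10.07 on d6. The changes by d6 were 9.96 ± 0.85 (SE, adjusted p = 1.1e-08) and 7.24 ± 0.85 (SE, adjusted p = 1.1e-06), and on d2 replicate 1 of Cl19, at 5.29, stood far below the other Cl19 arrays and within the range of 3c3.

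*Cdkn1a*, the p21 inhibitor, measured 10.81, 10.42 and 10.49 on d0, 12.08, 11.81 and 11.61 on d2, 11.64, 12.97 and 12.69 on d4 and 13.59, 14.02 and 13.47 on d6 in Cl19. In 3c3 *Cdkn1a* measured 10.72, 10.34 and 10.49 on d0, 12.11, 11.61 and 11.97 on d2, 12.41, 11.50 and 12.13 on d4 and 13.10, 12.35 and 12.55 on d6. It was above every d0 array from d2 on in both clones, with d6 changes of 3.12 ± 0.29 (SE, adjusted p = 4.1e-08) and 2.1502 ± 0.29 (SE, adjusted p = 6.9e-06). *Cdkn1b*, p27, changed by 0.75 ± 0.23 (SE, adjusted p = 0.0088) and 1.15 ± 0.23 (SE, adjusted p = 0.00032), and *Cdkn2a* by 5.25 ± 0.86 (SE, adjusted p = 3.9e-05) and 4.18 ± 0.86 (SE, adjusted p = 0.00051). *Cdkn2d*, p19, changed by 0.32 ± 0.15 (SE, adjusted p = 0.082) and 0.77 ± 0.15 (SE, adjusted p = 0.00034), the former not called. *Cdkn2c*, the p18 inhibitor of Cdk4 and Cdk6, fell in both clones, with changes of -3.10 ± 0.35 (SE, adjusted p = 3.6e-07) and -1.43 ± 0.35 (SE, adjusted p = 0.002), and *Cdkn1c*, p57, fell in Cl19 with a change of -1.54 ± 0.60 (SE, adjusted p = 0.037) and was not called in 3c3, at 0.78 ± 0.60 (SE, adjusted p = 0.3).

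*Ccnd1*, cyclin D1 of early G1, had d6 changes of opposite sign in the clones. Its Cl19 levels were 11.37, 11.46 and 11.83 on d0, 9.76, 9.78 and 9.13 on d2, 7.93, 7.11 and 7.75 on d4 and 7.12, 8.61 and 8.11 on d6. In 3c3 *Ccnd1* measured 10.07, 9.75 and 10.01 on d0, 9.39, 9.25 and 9.47 on d2, 9.66, 9.64 and 9.62 on d4 and 9.93, 11.50 and 11.02 on d6. The d6 changes were -3.61 ± 0.35 (SE, adjusted p = 5.6e-08) and 0.87 ± 0.35 (SE, adjusted p = 0.046), and they differed between the clones by -4.48 ± 0.49 (SE, adjusted p = 3.4e-06). In 3c3 the d6 and d0 arrays overlapped, with d6 replicate 1 at 9.93 below d0 replicates 1 and 3. *Mycn* fell in both clones, by 1.71 and 1.63.

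The labelled identity of the cells was read from marker lists. Of 8 smooth muscle markers, 7 had a probe, and 4 of these were well above background on all d0 arrays of each clone, 5 on all Cl19 d6 arrays, 4 on all 3c3 d6 arrays and 7 on both primary arrays. The markers *Myocd* and *Mylk* were well above background on both primary arrays and on no 3c3 d6 array. The summed level of the markers (log2) lay between 10.5 and 11.1 on the d0 arrays and between 15.9 and 16.2 on Cl19 d6. It lay between 14.8 and 15.5 on 3c3 d6 and between 16.5 and 16.6 in primary SMCs. Such a sum is led by its brightest marker, so it does not show how near the other markers came to primary SMCs. The 6 markers of primitive rMAPCs summed to between 15.2 and 15.4 on d0, between 13.9 and 14.9 on d6 and to 10.3 in primary SMCs, where *Pou5f1*, *Gata4* and *Sox7* were well above background on neither array. From d0 to d6 the mean of *Pou5f1*, which encodes Oct4, went from 10.3 to 1.13 in Cl19 and from 11.5 to 7.42 in 3c3. The means of *Gata4*, *Gata6*, *Sox17* and *Sox7* were also lower on d6 in both clones. That of *Foxa2* went from 13.3 to 13.9 in Cl19 and from 13.4 to 13.9 in 3c3. All 4 epithelial markers (*Cdh1* and 3 keratins) were well above background in every rMAPC group, and *Cdh1* and *Krt19* on neither primary array. Their summed level moved with the fall of the members, from between 17.0 and 17.1 on d0 to between 17.7 and 17.98 on d6, and the mean of *Cdh1* from 10.3 to 13.6 in Cl19 and from 9.47 to 13.5 in 3c3. The 4 fibroblast markers summed to between 12.1 and 12.4 on d0, between 13.2 and 13.9 on Cl19 d6, between 10.6 and 11.7 on 3c3 d6 and between 16.0 and 16.1 in primary SMCs. Of these *Col1a1* went from a mean of 5.9954 to 13.3 in Cl19 and from 6.01 to 9.53 in 3c3, and *Dcn* and *Lum* were well above background on no d0 array, on all Cl19 d6 arrays and on no 3c3 d6 array. The mean of *Pdgfra*, which led the sum on d0, went the other way, from 12.3 to 10.4 in Cl19 and from 12.2 to 10.5 in 3c3. The 5 endothelial markers summed to between 6.93 and 7.58 on d0, 4.22 and 5.10 on Cl19 d6 and 6.91 and 7.19 on 3c3 d6. The 5 blood markers lay between 6.54 and 7.38 on the d0 and d6 arrays, with *Itgam*, *Cd3e* and *Cd79b* above background on none of them. The part of these markers in the fall of the members was not tested.

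The stretches just upstream of the members were searched for the 3 elements best known from cell cycle promoters. Windows of 300 bases, 250 before to 50 after the annotated start, were at hand for 42 of the 52 members in RefSeq (rat build GRCr8), with *Cdc2* under its present name *Cdk1*. Both strands were searched for an E2F site (TTTCCCGC, TTTCGCGC, TTTGCCGC or TTTGGCGC), for the cell cycle genes homology region or CHR (TTTGAA or TTCGAA) and for the NF-Y box CCAAT. E2F letters on opposite strands can overlap each other, and TTCGAA reads the same on both strands.

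An E2F match stood in 11 of the 42 member windows (26.2%) and in 716 of all 33469 windows (2.14%). CHR matches stood in 21 (50%) and 19.7% of all windows, and CCAAT in 30 (71.4%) and 37.5%. By role, E2F matches were in 7 of 8 windows of licensing genes and in none of the 7 of mitotic kinases and checkpoint, the 6 of kinesins and spindle or the 4 of the centromere, whereas CHR matches were in 2 of 8, 5 of 7, 3 of 6 and 3 of 4 of these. *Mcm7* and *Cdc2* held all 3 kinds and *Ccne1*, *Rfc4*, *Aurka*, *Bub1*, *Kif2c* and *Mybl2* none. A match is a string of letters and no measurement of binding.

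The upstream stretches of 6 members are printed, each the 250 bases before the start in the direction of transcription, with every match in capitals. They are those of a licensing gene (*Mcm5*) and a gene with all 3 kinds (*Cdc2*). With CHR matches come a cyclin B (*Ccnb2*) and a gene with most of its fall after d4 (*Top2a*). The last are the 2 members whose d6 change in 3c3 was nearest 0 (*Cdc25b* and *Kif2c*).
Mcm5 (chr19:13488563-13488812, plus strand): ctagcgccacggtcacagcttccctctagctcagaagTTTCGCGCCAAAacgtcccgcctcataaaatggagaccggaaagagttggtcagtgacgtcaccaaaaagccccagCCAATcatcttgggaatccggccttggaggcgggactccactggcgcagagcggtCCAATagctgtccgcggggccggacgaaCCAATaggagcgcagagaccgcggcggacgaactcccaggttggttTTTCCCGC
Cdc2 (chr20:19265043-19265292, plus strand): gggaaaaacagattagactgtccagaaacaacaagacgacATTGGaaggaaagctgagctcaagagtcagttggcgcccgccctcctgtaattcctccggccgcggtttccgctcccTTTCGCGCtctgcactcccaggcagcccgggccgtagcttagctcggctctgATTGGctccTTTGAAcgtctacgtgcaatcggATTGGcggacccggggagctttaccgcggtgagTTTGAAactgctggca
Ccnb2 (chr8:79981659-79981908, minus strand): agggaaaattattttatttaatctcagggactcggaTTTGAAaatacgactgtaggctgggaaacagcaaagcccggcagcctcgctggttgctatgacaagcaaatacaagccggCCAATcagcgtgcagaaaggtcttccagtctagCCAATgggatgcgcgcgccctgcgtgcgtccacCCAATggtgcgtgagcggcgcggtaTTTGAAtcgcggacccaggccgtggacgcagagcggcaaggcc
Top2a (chr10:84473094-84473343, minus strand): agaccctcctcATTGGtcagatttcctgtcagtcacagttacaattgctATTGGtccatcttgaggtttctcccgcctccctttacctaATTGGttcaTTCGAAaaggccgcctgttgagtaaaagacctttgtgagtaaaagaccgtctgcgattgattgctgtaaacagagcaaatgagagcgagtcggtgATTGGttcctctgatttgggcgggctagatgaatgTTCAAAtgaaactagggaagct
Cdc25b (chr3:138859923-138860172, plus strand): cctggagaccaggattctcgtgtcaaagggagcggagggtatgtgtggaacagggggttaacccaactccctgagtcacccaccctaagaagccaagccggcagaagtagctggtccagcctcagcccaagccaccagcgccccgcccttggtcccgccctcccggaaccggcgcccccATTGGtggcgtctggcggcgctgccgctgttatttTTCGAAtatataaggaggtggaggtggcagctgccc
Kif2c (chr5:135899213-135899462, minus strand): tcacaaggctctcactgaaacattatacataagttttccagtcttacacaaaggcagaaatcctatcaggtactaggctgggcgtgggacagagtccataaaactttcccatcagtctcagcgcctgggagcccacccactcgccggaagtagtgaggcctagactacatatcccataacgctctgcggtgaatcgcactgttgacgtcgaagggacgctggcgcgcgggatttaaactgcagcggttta

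The printed *Kif2c* stretch holds no capitals, and those of *Cdc25b* are 1 CCAAT box on the minus strand and 1 CHR. Over the tested members with a window, the median d6 change with and without an E2F match was -1.38 (9 members) and -1.52 (27) in Cl19 and -1.22 and -1.54 in 3c3. With and without a CHR match it was -1.52 (18) and -1.47 (18) in Cl19 and -1.48 and -1.36 in 3c3. No test was made of these differences. Windows were missing for *Cdc6*, *Mcm4*, *Rrm2*, *Ccna2*, *Ccne2*, *E2f1*, *Foxm1*, *Aurkb*, *Ube2c* and *Tpx2*. The medians thus leave out *Rrm2*, *Ccna2* and *Ccne2*, which were among the members with the largest mean falls.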

How the data were processed

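Total RNA of 26 samples was labelled with Cy3 and hybridized to Whole Rat Genome arrays (1 colour). The authors extracted features with Agilent Feature Extraction 10.1.1.1, and the scanner files they deposited hold a background-corrected intensity for each of 45018 features. The deposited table of log2 values is the plain log2 of that intensity (largest difference 5.2e-14), without normalization between arrays. Per the methods, the authors worked on quantile-normalized log2 values averaged over replicate probes.

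From the deposited intensities, the 43379 gene features were put on the log2 scale and quantile-normalized (26 arrays), flagged outlier features were left out, and features of 1 probe were averaged (41012 probes). The 24442 tested probes had to be flagged well above background by the scanner software throughout 1 of the groups. A single fit over 9 groups was made with limma 3.58.1 in R 4.3.3, with Benjamini-Hochberg adjustment over all tested probes and a threshold of 0.05. The fit was tested on simulated data. All per-sample columns could be matched to labels. Figures were drawn with matplotlib 3.10.9.

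Members were matched by gene name on the array, in any case, and the brightest probe of a gene was used. Levels per array are given for genes picked per role, for the 4 with the largest mean fall and the 4 nearest to a rise, and for the 4 with the lowest p for a difference between clones; *Mki67* has no probe. *Gmnn* and *Rfc4* and the G1 genes with printed levels were added after their values were seen. The members, lists and tests were chosen with earlier results of these data known. Groups come from the sample labels. The replicate number names the slide: residuals of 2 arrays of 1 slide correlated above 0.1 in 16 of 18 pairs in Cl19 (lowest 0.06) and in 18 of 18 in 3c3, so the slide as a block is given as an alternative. Other alternatives were the scaling, background, filter, probe choice, a floor for dim values, separate fits, the methods' t-test (named there for comparisons in general, whereas array probes were selected by the area of their time profile) and each array left out. Precision is limited by 3 arrays a group, and 2 for primary SMCs. Probe sequences are those of the scanner files, and upstream sequences are from RefSeq (GRCr8).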

Additional observations from a re-analysis of the deposited data

Results flagged for a closer look

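The d6 change of *Mcm2* differed between the clones by -0.89 (Cl19 minus 3c3, limma, adjusted p = 0.029), with 3 of 3 Cl19 d6 arrays below 3 of 3 of 3c3. For *Kif2c* the difference was -1.10 (adjusted p = 0.043), with the 3 Cl19 d6 arrays below all Cl19 d0 arrays and overlapping arrays in 3c3. Neither was called once the slide of 3c3 replicate 3 was left out or the arrays were scaled to their 75th percentile. Leaving out Cl19 d0 replicate 1 alone also lost both calls.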

How the results depend on the processing

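The counts of members lower on d6 were within 1.5 times the main count under all alternatives except the methods' t-test after Benjamini-Hochberg, which gave 16 in Cl19. Scaling to the 75th percentile gave 9 falls from d4 to d6 in Cl19 and 0 clone differences on d6. The normexp background gave 2 lower members on d2 in each clone and 5 calls from d2 to d4 in 3c3. The deposited table gave 42 lower and 0 higher members in primary SMCs against either clone, 13 lower on d4 and 13 from d4 to d6 in 3c3. Without a filter, 6 were called from d2 to d4 in Cl19, 0 were lower on d2 in 3c3 and 1 differed between clones. With the replicate block (slide), 2 were lower on d2 in Cl19, 6 and 17 were called from d2 to d4 and from d4 to d6 in 3c3, and 4 differed between clones. Separate fits gave 0 on d2, 3 from d2 to d4 and 1 from d4 to d6 in Cl19, and 15 from d4 to d6 in 3c3. The mean over probes gave 2 lower on d2 in each clone.

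Without the slide of 3c3 replicate 3, the counts of lower members in Cl19 were 0 on d2, 5 from d2 to d4 and 6 from d4 to d6, those in 3c3 were 0 on d2, 2 on d4 and 0 in both steps, and 0 members differed between clones. With 1 array left out in turn, lower members in Cl19 numbered 0 to 3 on d2, 16 to 34 on d4 and 37 to 44 on d6, with 38 to 43 by the F-test, 2 to 26 from d2 to d4 and 2 to 35 from d4 to d6. In 3c3 the ranges were 0 to 2, 9 to 29, 37 to 41, 37 to 42, 0 to 12 and 0 to 31. Against primary SMCs they were 12 to 20 lower and 6 to 15 higher for Cl19 and 14 to 20 lower and 3 to 7 higher for 3c3. Clone differences on d6 ranged from 0 to 10, and those in the d2 change and on d0 were 0 throughout. The highest count was mostly the one without Cl19 d6 replicate 3, and the cause was not tested.

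Of single members, the d6 change turned sign in 10 cases. That of *Kif2c* in 3c3 was -0.24 with the 75th percentile and ranged from -0.0392 to 0.0673 with 1 array left out. That of *Cdc25b* in 3c3 was 0.0292 with the 75th percentile, 0.34 in the deposited table and -0.19 to 0.28 with 1 array left out. That of *Cenpf* in Cl19 was 0.21 in the deposited table and -0.80 to 0.0717 with 1 array left out. Another 22 became called, 21 lost their call and 1417 kept call and direction.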

Other observations

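*Prim1* was higher on d2 than on every d0 array in both clones, at 11.86, 11.97 and 11.96 against 11.39, 11.35 and 11.46 in Cl19 and at 11.90, 11.83 and 11.92 against 11.46, 11.45 and 11.60 in 3c3, without passing the test (adjusted p = 0.081 and 0.25). *Cdk6*, a G1 kinase, was well above background on both primary arrays, at 7.10 and 7.30, and on 1 of the 24 rMAPC arrays.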
